A study of Mus musculus with 16 samples.

Results

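Tgif1 and Tgif2, with Meis1, Meis2, Pbx2, Pbx3 and Pknox1, are TALE homeobox genes, and their signals were followed here in mouse embryonic stem (ES) cells with a knockdown of Tgif1 and in cells labelled as overexpressing Tgif1 or Tgif2. Neither the Tgif1 nor the Tgif2 array signal was called higher in the cells with its label. The members were every probe set of the array that is annotated with exactly 1 of these 7 gene symbols. There were 10 such probe sets among 22690. Pbx2 had 3 probe sets, Pknox1 had 2, and the other 5 genes had 1 each.

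TALE homeodomain proteins, named for the extended loop that sets them apart, carry extra residues in the loop between the first helices of the homeodomain. PBX proteins bind DNA together with HOX proteins and with the MEIS and PKNOX (also called PREP) proteins, which also bring PBX into the nucleus. TGIF proteins repress transcription: they bind a site close to that of MEIS, recruit corepressors, and limit the response to TGF-beta and Nodal signals carried by Smad2 and Smad3. In the early embryo Meis and Pbx genes are known as partners of Hox genes and as genes that respond to retinoic acid.

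The study hybridised RNA of J1 cells, a mouse ES line, to 16 Affymetrix Mouse 430A 2.0 arrays that fall into 5 groups. All cells were grown on gelatin in medium with fetal bovine serum and leukemia inhibitory factor. The knockdown arm held 2 arrays labelled Tgif1 KD and 2 labelled shControl. The overexpression arm held 4 arrays labelled Tgif1 OE, 4 labelled Tgif2 OE and 4 labelled BirA control. BirA is a bacterial biotin ligase, and the labels do not say whether the Tgif1 OE and Tgif2 OE cells carry it too. They also do not give the constructs, the promoters that drive them, the number of clones or the time after the change. A knockdown of Tgif2 is named in the study's design and was not analysed here. No label tells if the replicates came from separate cultures, and the p-values reflect only the spread between these arrays, which may be technical.

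Tgif2, Meis1 and Meis2 are members that rose in the knockdown and that have a RefSeq start site in the table used here. Their promoters are shown because these members moved together, and because they can be read for the core of the TGIF site. Each run is the 250 bases before the start site on the strand of the gene, in GRCm38.p6 as RefSeq gives it. The window of Tgif2 is chr2:156839757-156840006 on the + strand, that of Meis1 is chr11:19018970-19019219 on the - strand, and that of Meis2 is chr2:116064620-116064869 on the - strand.
Tgif2: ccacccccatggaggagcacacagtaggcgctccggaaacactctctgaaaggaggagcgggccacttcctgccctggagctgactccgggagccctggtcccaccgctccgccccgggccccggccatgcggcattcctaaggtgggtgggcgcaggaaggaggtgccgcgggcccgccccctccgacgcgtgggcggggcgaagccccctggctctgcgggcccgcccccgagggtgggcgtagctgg
Meis1: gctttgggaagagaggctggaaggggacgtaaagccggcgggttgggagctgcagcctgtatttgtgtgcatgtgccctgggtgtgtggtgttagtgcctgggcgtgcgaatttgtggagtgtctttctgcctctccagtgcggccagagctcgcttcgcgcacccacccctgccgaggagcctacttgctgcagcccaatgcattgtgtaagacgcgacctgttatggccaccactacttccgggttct
Meis2: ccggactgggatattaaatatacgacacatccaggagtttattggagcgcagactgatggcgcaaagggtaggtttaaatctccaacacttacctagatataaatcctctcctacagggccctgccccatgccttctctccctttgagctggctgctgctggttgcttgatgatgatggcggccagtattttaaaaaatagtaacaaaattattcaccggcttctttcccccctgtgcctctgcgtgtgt
The letters CTGTCA, the core that TGIF and MEIS proteins bind, and TGATTNAT, a PBX-HOX site, were searched on both strands. None of these 3 windows held either run, so nothing is set in capitals. CTGTCA is in 15.9% and TGATTNAT in 2.82% of 32851 mouse windows of the same length. Of the 7 members, 5 were in the table; Pbx2 had neither run, and 1 of 5 start sites of Tgif1 had 1 match to TGATTNAT, at bases 134 to 127 before the start. The windows differed in base composition: G and C made up 74% of that of Tgif2, 59.6% of that of Meis1 and 47.6% of that of Meis2, beside a median of 52.4% over all windows. CpG pairs numbered 22, 13 and 7 in the same order. A match or its absence in these letters says nothing of where a protein is bound.

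The deposited values are log2 RMA intensities per probe set. A log2 value can be set against the same probe set on another array, but not against another probe set. The values of 22626 probe sets that are not array controls were fitted together with limma, and a change was called at an adjusted p under 0.05 (Benjamini-Hochberg, over all probe sets). The error after ± is the standard error of that difference unless an SD is named. The Tgif2 OE arrays were shifted: the median difference of all probe sets was 0.11 log2 against BirA control, so for the members and named genes differences that involve them are given as deposited and, where the shift matters, also relative to that median. In that comparison 5637 probe sets were called higher and 1398 lower as deposited, and 2580 and 2709 after quantile normalization. All 10 ES cell markers were measured, and their lowest array values lay between 8.99 for Esrrb and 14.02 for Dppa5a.

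**Figure D1:**
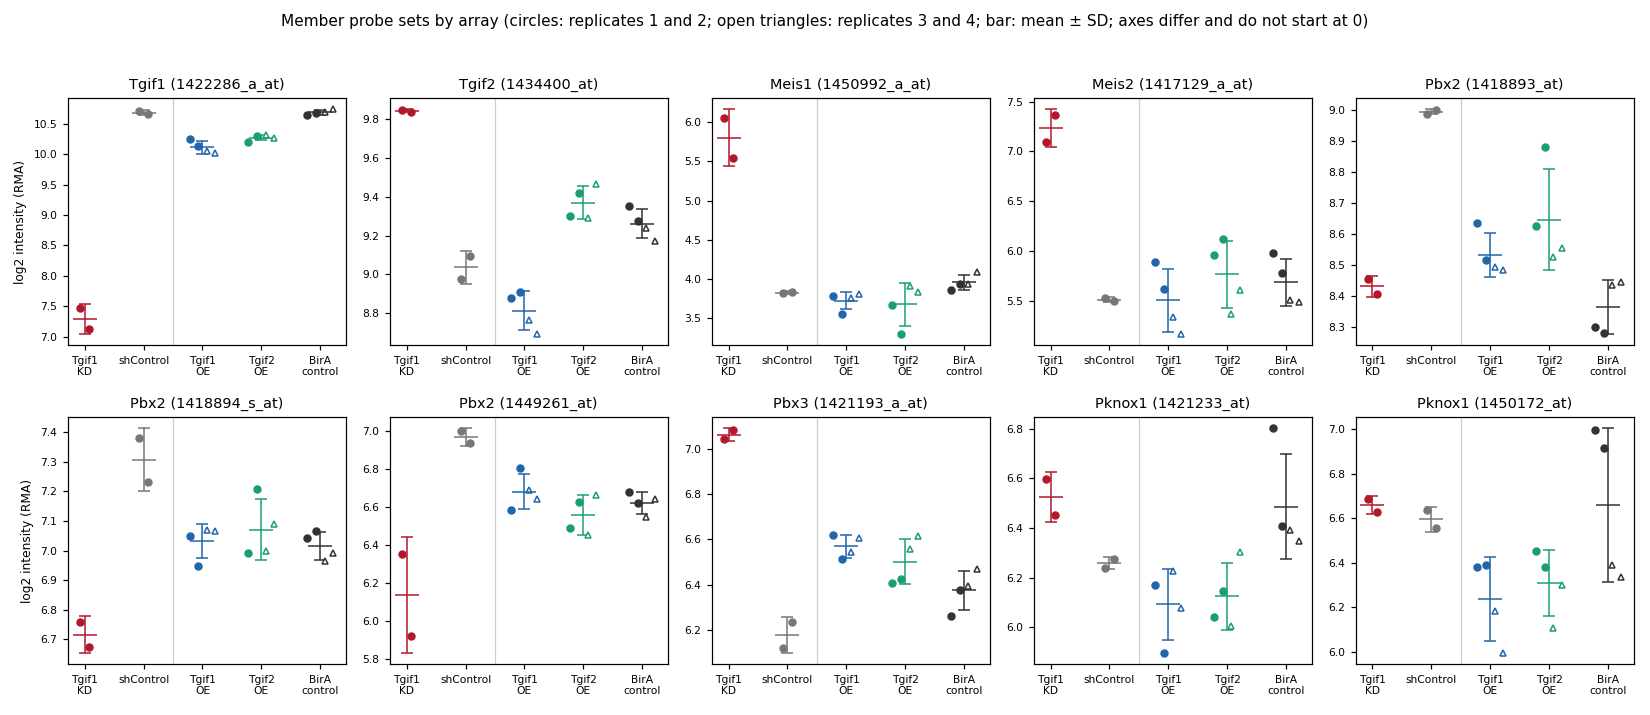
The log2 RMA intensity of each of the 10 probe sets on each of the 16 arrays, with a point per array (circles for replicates 1 and 2, open triangles for 3 and 4), a bar at each group mean ± SD, and the groups Tgif1 KD, shControl, Tgif1 OE, Tgif2 OE and BirA control along the axis. The 2 Tgif1 KD arrays stand apart for Tgif1 (7.46 and 7.12), Meis1 (6.06 and 5.55), Meis2 (7.10 and 7.37) and Tgif2 (9.85 and 9.84).

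The targeted gene, Tgif1, was far lower on the Tgif1 KD arrays. Its probe set 1422286_a_at read 7.46 and 7.12 on the Tgif1 KD arrays, against 10.71 and 10.66 on the shControl arrays. The groups were 3.19 log2 units apart at their closest. The difference was -3.39 ± 0.10 (adjusted p = 9.22e-11), which left 9.51% of the shControl signal. In bulk RNA, fewer cells with a transcript and less of it per cell cannot be told apart.

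Tgif2, the closest relative of Tgif1 and a repressor with an overlapping set of partners, was higher in the Tgif1 knockdown. Its probe set 1434400_at read 9.85 and 9.84 on the Tgif1 KD arrays, against 8.98 and 9.10 on the shControl arrays. Both Tgif1 KD arrays were above every other array of the 16. The difference was 0.81 ± 0.09 (1.75-fold, adjusted p = 2.21e-05).

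On the arrays labelled Tgif1 OE neither TGIF gene was higher than on BirA control. Tgif1 read 10.25, 10.14, 10.06 and 10.02 on the arrays labelled Tgif1 OE, against 10.65, 10.67, 10.70 and 10.74 on the BirA control arrays. Every array labelled Tgif1 OE was below every BirA control array, against the direction of the label (-0.58 ± 0.07, adjusted p = 7.91e-05). Whether this probe set detects the Tgif1 transgene is not known here, so both overexpression groups are named by their labels.

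Tgif2 fell on the same arrays. It read 8.88, 8.91, 8.77 and 8.69 on the arrays labelled Tgif1 OE, against 9.35, 9.28, 9.24 and 9.17 on BirA control. The groups did not overlap (-0.45 ± 0.07, adjusted p = 0.000252). These are the lowest Tgif2 values of the 16 arrays, while the Tgif1 KD arrays had the highest.

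The arrays labelled Tgif2 OE did not show a higher Tgif2 signal than BirA control beyond the shift of those arrays. Tgif2 read 9.30, 9.42, 9.29 and 9.47 on the arrays labelled Tgif2 OE, within reach of the 9.17 to 9.35 of BirA control. The difference was 0.11 ± 0.07 (95% interval -0.03 to 0.25, adjusted p = 0.226) and 0.001 relative to the median of all probe sets. Whether 1434400_at detects the Tgif2 transgene is not known here either. Tgif1 read 10.21, 10.29, 10.31 and 10.27 on these arrays and was below every BirA control array. Its difference was -0.42 ± 0.07 (adjusted p = 0.000602), or -0.53 relative to the median.

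Meis1 and Meis2, cofactors of HOX and PBX proteins, rose together in the knockdown. Meis1 (1450992_a_at) read 6.06 and 5.55 on the Tgif1 KD arrays, against 3.82 and 3.83 on the shControl arrays. The 2 Tgif1 KD arrays differed by 0.51, yet both stood far above the other 14, which lay between 3.30 and 4.09. The difference was 1.98 ± 0.18 (adjusted p = 2.57e-06). The Meis1 probe set was in the dimmest 33.3% of probe sets by mean signal. Whether its signal stood above background outside the Tgif1 KD arrays is not known here, so the size of its difference depends on a baseline that may be background.

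Meis2 (1417129_a_at) read 7.10 and 7.37 on the Tgif1 KD arrays, against 5.53 and 5.49 on the shControl arrays. No other array was above 6.12. The difference was 1.72 ± 0.25 (3.30-fold, adjusted p = 0.000157).

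Neither Meis gene passed the threshold on the arrays labelled Tgif1 OE. Meis1 read 3.78, 3.55, 3.76 and 3.80 on those arrays, against 3.85, 3.94, 3.94 and 4.09 on BirA control. Each array labelled Tgif1 OE was below each BirA control array, but by less than the fit could call (-0.23 ± 0.13, adjusted p = 0.257). Meis2 read 5.89, 5.62, 5.34 and 5.17 on the arrays labelled Tgif1 OE and 5.98, 5.78, 5.50 and 5.48 on BirA control, and these groups overlapped (-0.18 ± 0.18, adjusted p = 0.569).

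On the arrays labelled Tgif2 OE the reading of Meis1 depended on scaling. It read 3.66, 3.30, 3.91 and 3.83 there, so 1 of its 4 arrays was level with the BirA control arrays and replicate 2 was well below them. The deposited difference was -0.28 ± 0.13 (adjusted p = 0.111) and -0.39 relative to the median. It was called after quantile normalization (adjusted p = 0.0254), after centring (0.0394) and with the replicate number as a block (0.0480). Whether the replicate numbers pair the arrays is not known. Meis2 read 5.96, 6.12, 5.37 and 5.61 on these arrays and differed by 0.08 ± 0.18 from BirA control (adjusted p = 0.768), or -0.03 relative to the median.

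The PBX genes moved in opposite directions in the knockdown. Pbx2, a broadly expressed PBX partner of HOX and MEIS proteins, fell in all 3 of its probe sets. Probe set 1418893_at read 8.46 and 8.41 on the Tgif1 KD arrays, against 8.99 and 9.0005 on the shControl arrays (-0.56 ± 0.11, adjusted p = 0.00136). Probe set 1418894_s_at, a type that may match several transcripts, read 6.76 and 6.67 on the Tgif1 KD arrays, against 7.38 and 7.23 on the shControl arrays (-0.59 ± 0.09, adjusted p = 0.000192). Probe set 1449261_at read 6.35 and 5.92 on the Tgif1 KD arrays, against 7.0003 and 6.93 on the shControl arrays (-0.83 ± 0.12, adjusted p = 0.000165).

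In all 3 Pbx2 probe sets both shControl arrays were above every other array of the series. For 1418893_at the Tgif1 KD arrays lay level with the BirA control arrays, which read 8.30, 8.28, 8.44 and 8.44. For the other 2 probe sets the Tgif1 KD arrays were also below every BirA control array.

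Pbx3, a PBX gene known from the developing nervous system, rose. Its probe set 1421193_a_at read 7.04 and 7.08 on the Tgif1 KD arrays, against 6.12 and 6.23 on the shControl arrays. The Tgif1 KD values were above those of every other array. The difference was 0.88 ± 0.09 (1.85-fold, adjusted p = 6.14e-06).

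In the overexpression arm the PBX genes differed little. Pbx3 read 6.62, 6.51, 6.54 and 6.60 on the arrays labelled Tgif1 OE, against 6.26, 6.38, 6.40 and 6.47 on BirA control. The groups did not overlap, and the difference of 0.19 ± 0.06 was called at an adjusted p = 0.0448. That call was lost without any 1 of the 8 arrays other than BirA control replicate 4, with adjusted p-values up to 0.134. On the arrays labelled Tgif2 OE, Pbx3 read 6.41, 6.43, 6.56 and 6.61 and differed by 0.13 ± 0.06 (adjusted p = 0.143), or 0.02 relative to the median.

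Of the 3 Pbx2 probe sets, 1418893_at was called on the arrays labelled Tgif2 OE and none was called on the arrays labelled Tgif1 OE. It read 8.62, 8.88, 8.53 and 8.55 on the arrays labelled Tgif2 OE, above every BirA control array (0.28 ± 0.08, adjusted p = 0.0112). The call was lost after quantile normalization (adjusted p = 0.106) and after centring (0.111), where the difference was 0.18 in both. On the arrays labelled Tgif1 OE the same probe set read 8.64, 8.52, 8.49 and 8.48 (0.17 ± 0.08, adjusted p = 0.157). The other 2 Pbx2 probe sets were not called in either group. On the arrays labelled Tgif1 OE 1418894_s_at differed by 0.02 and 1449261_at by 0.06. For the arrays labelled Tgif2 OE these values were 0.06 and -0.06, or -0.05 and -0.17 relative to the median.

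Pknox1, which encodes a MEIS-related partner of PBX, did not pass the threshold in the knockdown with either probe set. Probe set 1421233_at read 6.60 and 6.45 on the Tgif1 KD arrays, against 6.24 and 6.27 on the shControl arrays (0.27 ± 0.15, 95% interval -0.04 to 0.58, adjusted p = 0.223). Probe set 1450172_at read 6.69 and 6.63 on the Tgif1 KD arrays, against 6.63 and 6.55 on the shControl arrays (0.06 ± 0.20, 95% interval -0.36 to 0.49, adjusted p = 0.865). The first pair of groups did not overlap and the second did.

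Pknox1 was lower in both overexpression groups than on BirA control, with a call for 1 of its 2 probe sets. Probe set 1421233_at read 6.17, 5.90, 6.22 and 6.08 on the arrays labelled Tgif1 OE and 6.04, 6.15, 6.01 and 6.30 on those labelled Tgif2 OE, against 6.80, 6.41, 6.39 and 6.35 on BirA control. All 8 values were below all 4 BirA control values. So were the shControl values of 6.24 and 6.27, though that difference was not called (-0.23 ± 0.13, adjusted p = 0.245). The differences were -0.39 ± 0.10 on the arrays labelled Tgif1 OE (adjusted p = 0.0149) and -0.36 ± 0.10 on those labelled Tgif2 OE (adjusted p = 0.0154, or -0.47 relative to the median). The first of these was no longer called without Tgif1 OE replicate 2 (adjusted p = 0.0507).

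The other Pknox1 probe set, 1450172_at, had differences of like size and a wider spread. It read 6.38, 6.39, 6.18 and 5.99 on the arrays labelled Tgif1 OE and 6.45, 6.38, 6.11 and 6.30 on those labelled Tgif2 OE, against 6.995, 6.91, 6.39 and 6.33 on BirA control. Replicates 1 and 2 of BirA control were about 0.5 log2 above replicates 3 and 4, which lay among the overexpression arrays. The differences of -0.42 ± 0.14 (adjusted p = 0.0526) and -0.35 ± 0.14 (adjusted p = 0.0750) were not called. With the replicate number as a block they were (0.00388 and 0.00783). The difference on the arrays labelled Tgif2 OE was -0.46 relative to the median, and it was also called after quantile normalization (0.0331) and after centring (0.0315).

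**Figure D2:**
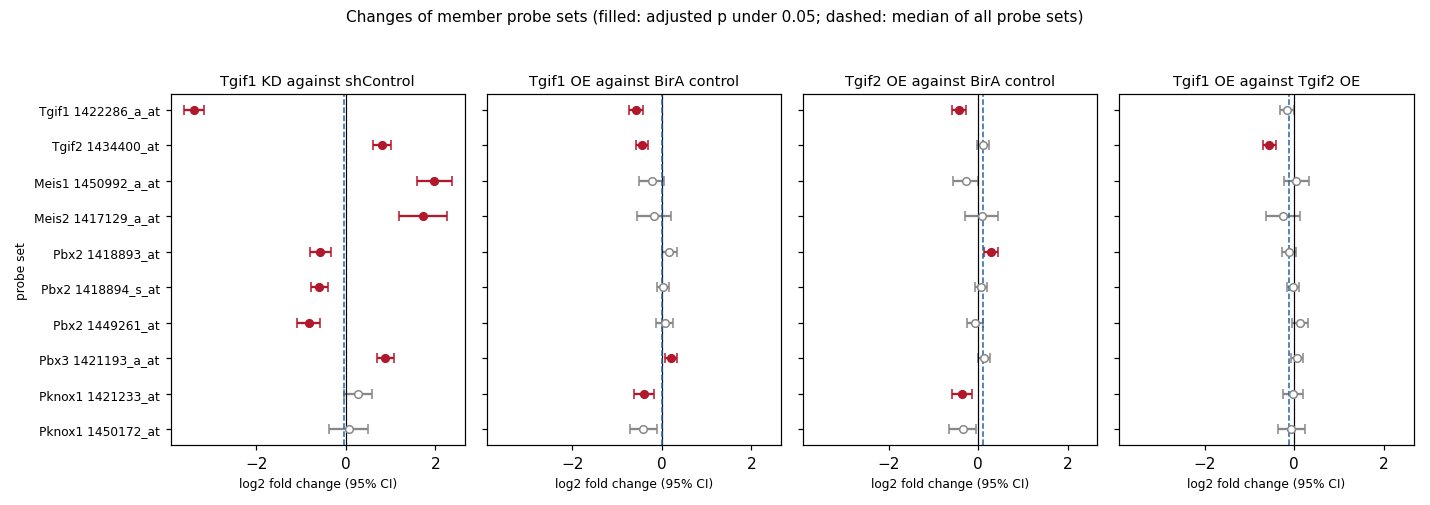
The log2 difference of each probe set in 4 comparisons, with its 95% interval along the horizontal axis and the probe sets down the page. Filled points passed an adjusted p under 0.05, and the dashed line is the median of all probe sets, which was 0.11 for the arrays labelled Tgif2 OE. The knockdown differences reach -3.39 for Tgif1 and 1.98 for Meis1, while those in the other 3 comparisons lie between -0.58 and 0.28.

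In the Tgif1 knockdown 8 of the 10 probe sets were called, 4 higher and 4 lower, where 22.3% of all probe sets were called (11.2% higher and 11.1% lower). Tgif1, 1 of the 8, is the targeted gene, and the members were chosen with earlier results of these data known. The counts therefore do not test whether the members changed more often than other genes. Tgif2, Meis1, Meis2 and Pbx3 were higher, and Tgif1 and the 3 Pbx2 probe sets were lower. For 9 of the 10 the groups did not overlap, but with 2 arrays a group this held for 67% of all probe sets. The probe sets of Pbx2 measure 1 gene, so the 8 calls stand for 6 genes. None of these calls was lost under the 13 alternative settings, and neither Pknox1 probe set gained one.

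Against BirA control, 4 of 10 were called on the arrays labelled Tgif1 OE, 1 higher and 3 lower, where 17.8% of all probe sets were called. For 6 of 10 these groups did not overlap, which held for 20.8% of all probe sets. The arrays labelled Tgif2 OE gave 3 of 10, 1 higher and 2 lower, where 31.1% of all were called. With the replicate block the Tgif1 OE comparison gained the second Pknox1 probe set, where 2785 of all probe sets were higher and 2918 lower. The Tgif2 OE comparison gave 5 with that block, when Meis1 and the second Pknox1 probe set were added. Over all probe sets 7059 were then higher and 1897 lower. After quantile normalization the Tgif2 OE comparison gave 4, of which 0 were higher and 4 lower: Tgif1, Meis1 and both Pknox1 probe sets. Over all probe sets 2580 were then higher and 2709 lower. Both comparisons use the same 4 BirA control arrays. The median over the 10 probe sets was 0.17 in the knockdown, -0.21 on the arrays labelled Tgif1 OE and -0.004 on those labelled Tgif2 OE, beside medians over all probe sets of -0.04, 0.003 and 0.11.

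The arrays labelled Tgif1 OE and Tgif2 OE were also set against each other. Tgif2 was the 1 probe set of 10 that was called, where 18.6% of all were called. It was lower on the arrays labelled Tgif1 OE by -0.56 ± 0.07 (adjusted p = 0.000118), or -0.45 relative to the median, and the groups did not overlap. The call held after quantile normalization (adjusted p = 0.000737). Tgif1 differed by -0.16 ± 0.07 (95% interval -0.31 to -0.002, adjusted p = 0.142). Meis2 differed by -0.26 ± 0.18 (adjusted p = 0.317) and was called with the replicate block (0.0491), which raised the count to 2. With that block 781 of all probe sets were higher and 5595 lower. The other 7 probe sets differed by between -0.11 and 0.12, or between -0.01 and 0.23 relative to the median, and were not called.

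The effect of the knockdown minus the effect seen on the arrays labelled Tgif1 OE was also tested, a comparison of effects in which no array is shared. It was called for 9 of 10 probe sets, the targeted gene Tgif1 among them, 5 higher and 4 lower, where 24.6% of all were called. It was 1.26 ± 0.11 for Tgif2 (adjusted p = 2.11e-06), 2.21 ± 0.22 for Meis1 (4.88e-06), 1.90 ± 0.30 for Meis2 (0.000319) and 0.69 ± 0.11 for Pbx3 (0.000287). It was -2.82 ± 0.13 for Tgif1 (3.97e-09), and -0.73, -0.61 and -0.89 for the Pbx2 probe sets. Of the members called in both arms, Tgif2 had opposite signs, while Tgif1 was lower and Pbx3 higher in both. For Pknox1 1421233_at the difference of 0.66 ± 0.18 (adjusted p = 0.0135) was no longer called without Tgif1 KD replicate 1 (0.0713) or shControl replicate 1 (0.0515). For Pknox1 1450172_at it was 0.49 ± 0.24 (adjusted p = 0.176) and was called with the replicate block (0.0259). That block also pairs the knockdown arrays by number, for which there was no sign.

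The control groups belong to different arms, so their comparison is of control arrays and not of a treatment. Between shControl and BirA control 3 of 10 probe sets were called, all of Pbx2 and all higher on shControl, where 18.7% of all were called. The Pbx2 differences were 0.63 ± 0.09 (adjusted p = 0.000344), 0.29 ± 0.08 (0.0147) and 0.34 ± 0.10 (0.0321). The second was lost without shControl replicate 1 (0.191) and when only the arrays compared were fitted (0.0501). Both the second and the third were lost with array pairs as a random block (0.0827 and 0.146). The third was lost without either shControl array or without BirA control replicate 2 or 3 (up to 0.191), and after quantile normalization (0.0601) or centring (0.05005). Tgif1 differed by -0.01 ± 0.09 between the controls, and Tgif2 by -0.23 ± 0.08 (adjusted p = 0.0668).

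Ordered by mean, the level of Tgif1 was highest on BirA control and shControl (10.69 ± 0.04 and 10.69 ± 0.04, SD, n = 4 and 2), whose ranges overlapped. It was next highest on the arrays labelled Tgif2 OE (10.27 ± 0.04, n = 4) and Tgif1 OE (10.12 ± 0.10, n = 4), whose ranges overlapped too, and lowest on Tgif1 KD (7.29 ± 0.25, n = 2). Tgif2 ran in another order, with Tgif1 KD highest (9.84 ± 0.01), then Tgif2 OE and BirA control, which overlapped, then shControl (9.04 ± 0.08) and Tgif1 OE (8.81 ± 0.10). Meis1, Meis2 and Pbx3 shared Tgif1 KD as the highest group, separate from the next. Below it the Meis2 groups all overlapped their neighbours, between 5.50 ± 0.32 and 5.76 ± 0.34. For Pknox1 the Tgif1 KD and BirA control groups were the highest and overlapped, and the arrays labelled Tgif2 OE and Tgif1 OE were the lowest and overlapped.

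Within the overexpression arm, replicates 1 and 2 differed from replicates 3 and 4 for some members. Meis2 was higher in replicates 1 and 2 by 0.50 in Tgif1 OE, 0.55 in Tgif2 OE and 0.38 in BirA control, with no overlap in any of the groups. Pknox1 1450172_at was higher by 0.30, 0.21 and 0.59 in the same order, again with no overlap. The labels give no batch. Tgif1, Tgif2 and both Pbx genes showed no such order in all 3 groups. Pbx2 1418893_at was split without overlap in each group, but not in the same direction. Its replicates 1 and 2 differed from 3 and 4 by 0.09 in Tgif1 OE, 0.21 in Tgif2 OE and -0.15 in BirA control.

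Other TALE genes were measured for 9 of 13 listed, namely Pbx4, Meis3, Pknox2 and Irx1 to Irx6. In the knockdown 2 of the 9 were called higher and 0 lower, with a median of -0.10, where 22.3% of all probe sets were called. Irx2, one of the Iroquois patterning genes, read 6.17 and 6.13 on the Tgif1 KD arrays, against 5.05 and 5.37 on the shControl arrays, and rose by 0.94 ± 0.11 (adjusted p = 3.04e-05). Its shControl level was itself below that of BirA control (-0.36 ± 0.10, adjusted p = 0.0192), whose arrays read 5.54, 5.58, 5.54 and 5.62. Both Tgif1 KD arrays were above these too. Irx1 rose by 0.31 ± 0.10 (adjusted p = 0.0375), a call lost without any 1 of the 4 arrays (up to 0.204) and after centring (0.0597). Meis3, Pknox2 and Pbx4 differed by between -0.17 and 0.01 and were not called.

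In the overexpression arm 4 of these 9 genes were higher and 0 lower on the arrays labelled Tgif1 OE, and 3 were higher and 0 lower on those labelled Tgif2 OE. Of all probe sets 17.8% and 31.1% were called in these comparisons. The medians of the 9 genes were -0.02 and 0.19, and Irx2 was not called. Irx3 read 5.49, 5.26, 5.32 and 5.16 on the arrays labelled Tgif1 OE and 5.14, 5.53, 5.59 and 5.64 on those labelled Tgif2 OE, against 4.19, 4.30, 4.54 and 4.18 on BirA control. It rose by 1.01 ± 0.12 (adjusted p = 4.43e-05) and 1.17 ± 0.12 (8.59e-06), the second being 1.07 relative to the median. Irx5, its neighbour in the Iroquois B cluster, read 4.64, 4.52, 4.37 and 4.28 on the arrays labelled Tgif1 OE and 4.69, 4.45, 4.69 and 4.71 on those labelled Tgif2 OE, against 3.98, 3.83, 3.64 and 3.88 on BirA control. It rose by 0.62 ± 0.10 (0.000485) and 0.80 ± 0.10 (3.91e-05, or 0.70 relative to the median). Irx1 rose by 0.30 ± 0.07 (0.00837) and 0.38 ± 0.07 (0.00120, or 0.27 relative to the median), and Irx4 by 0.49 ± 0.12 (0.00789) on the arrays labelled Tgif1 OE. The Irx1, Irx3 and Irx5 calls of the overexpression arm held after quantile normalization and after centring.

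The knockdown effect minus the Tgif1 OE effect was -1.35 ± 0.21 for Irx3 (adjusted p = 0.000206), -0.71 ± 0.17 for Irx5 (0.00638) and -0.65 ± 0.20 for Irx4 (0.0269). It was 1.06 ± 0.14 for Irx2 (5.11e-05), which rests on the same low shControl level. The Irx4 value was lost without Tgif1 KD replicate 2 or without either shControl array (up to 0.131). For Irx1 the difference was 0.01 ± 0.12 (0.961). The Irx1, Irx3, Irx4 and Irx5 signals were all low on this array, between 3.61 and 5.64 over the 16 arrays, and they were not checked against detection calls. Between the arrays labelled Tgif1 OE and Tgif2 OE, 1 of 2 Pbx4 probe sets differed (-0.30 ± 0.08, adjusted p = 0.0237), which was lost after quantile normalization (0.157), and the other read 0.08 ± 0.11 (0.658).

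**Figure D3:**
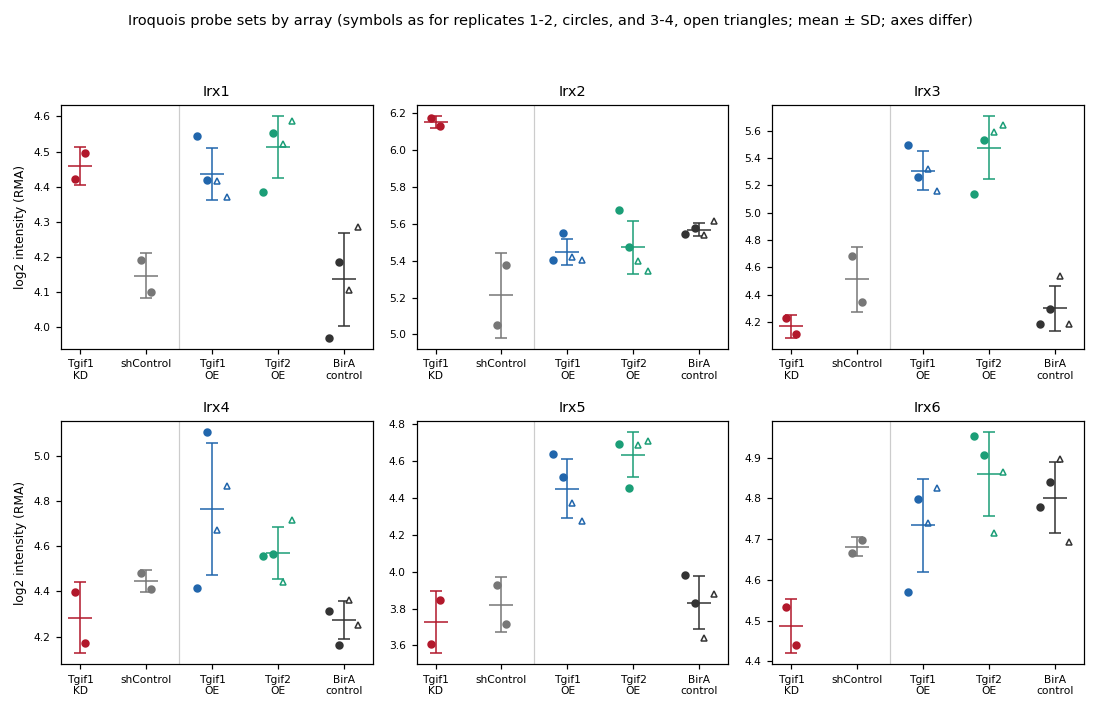
The log2 RMA intensity of Irx1, Irx2, Irx3, Irx4, Irx5 and Irx6 on each array, with a point per array and a bar at each group mean ± SD, by group along the axis. Irx2 is highest on the 2 Tgif1 KD arrays (6.17 and 6.13), while every Irx3 and Irx5 value of the arrays labelled Tgif1 OE and Tgif2 OE is above those of the other groups.

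Of 13 listed binding partners of TGIF proteins 12 were measured. In the knockdown 1 was higher and 1 lower: Foxh1, a Smad partner at Nodal targets, rose by 0.63 ± 0.12 (adjusted p = 0.00119), with its other 2 probe sets at 0.46 and 0.87, and the corepressor gene Sin3a fell by 0.51 log2 (0.0370), a call lost without any 1 of the 4 arrays (up to 0.151). Of all probe sets 22.3% were called in the knockdown and 17.8% on the arrays labelled Tgif1 OE. Among the partners 2 were higher and 0 lower on the arrays labelled Tgif1 OE, and with the replicate block 3 and 1. Skil, a Smad corepressor, rose by 0.60 ± 0.15 (0.0104, its other probe set 0.28 at 0.375), and Ctbp1, a corepressor that TGIF1 binds, by 0.30 ± 0.07 (0.00557). For the arrays labelled Tgif2 OE the counts were 5 higher and 0 lower as deposited, where 31.1% of all probe sets were called and most of those were higher, and 4 higher and 2 lower after quantile normalization, with Ctbp1 at 0.37 ± 0.07 (0.000767) and Ctbp2 at 0.34 ± 0.05 (0.000343), or 0.26 and 0.23 relative to the median. Skil was at 0.42 there (0.0419), or 0.31 relative to the median, which was lost after quantile normalization (0.198). The list's medians were -0.10, 0.07 and 0.23 in these 3 comparisons.

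Of 12 Hox genes of paralogue groups 1 to 4, which MEIS and PBX proteins accompany on DNA, 9 were measured. In the knockdown 0 were higher and 1 lower, with a median of -0.14, where 22.3% of all probe sets were called. Hoxc4 fell by 0.82 log2 (adjusted p = 0.0126), a call lost without either Tgif1 KD array or without shControl replicate 2 (up to 0.184). Against BirA control limma called 0 of the 9 on the arrays labelled Tgif1 OE (and 0 at an unadjusted p under 0.05), where 17.8% of all probe sets were called. On those labelled Tgif2 OE it called 1, where 31.1% were called. This was Hoxb1 at 0.31 ± 0.08 (0.00680), or 0.21 relative to the median, and it was lost after quantile normalization (0.0615). After quantile normalization, and also after centring, 0 of the 9 were higher and 1 was lower on the arrays labelled Tgif2 OE.

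Of 12 genes of the Nodal pathway, which TGIF proteins limit, 10 were measured. In the knockdown 4 were higher and 1 lower, with a median of 0.31, where 22.3% of all probe sets were called. The ligand gene Nodal rose by 0.63 ± 0.07 (adjusted p = 1.97e-05) and its coreceptor gene Tdgf1 by 0.57 ± 0.11 (0.00139), while the inhibitor gene Lefty1 fell by 1.04 log2 (0.000967). The arrays labelled Tgif1 OE had 0 higher and 3 lower, where 17.8% of all probe sets were called, or 2 and 4 with the replicate block. Gdf3, which encodes a Nodal-related ligand, fell by 0.31 log2 (0.000898). Smad7, an inhibitor of the pathway, fell by 0.31 log2 (0.0181), a call lost without Tgif1 OE replicate 3 or 4 or BirA control replicate 4 (up to 0.0632). Those labelled Tgif2 OE had 4 higher and 0 lower as deposited, where 31.1% of all probe sets were called, and 2 and 0 after quantile normalization. Among those called as deposited were the receptor gene Acvr1b at 0.34 ± 0.06 (0.000633) and the protease gene Furin at 0.33 ± 0.07 (0.00274), or 0.23 and 0.22 relative to the median. The Nodal list's medians were -0.13 on the arrays labelled Tgif1 OE and 0.16 on those labelled Tgif2 OE. Between these groups 0 were higher and 6 lower on the arrays labelled Tgif1 OE, among them Smad7 at -0.55 (0.000751), and 0 and 3 after quantile normalization. Of all probe sets 436 were higher and 3780 lower in that comparison as deposited. For Nodal the knockdown effect minus the Tgif1 OE effect was 0.79 ± 0.09 (1.27e-05).

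Of 13 genes of the retinoic acid pathway, to which Meis genes respond, 12 were measured. In the knockdown 1 was higher and 4 lower, with a median of -0.09, where 22.3% of all probe sets were called. Tgm2, a transglutaminase gene induced by retinoic acid, rose by 2.02 ± 0.26 (adjusted p = 5.73e-05), and 1 of its 6 probe sets differed by -0.14 and was not called. Stra8, a germ cell gene induced by retinoic acid, fell by 1.61 log2 (9.34e-06), and Crabp1, a retinoic acid binding protein gene, fell by 1.24 log2 (0.00178). Crabp2, a close relative of Crabp1, rose by 1.47 ± 0.21 (0.000189) on the arrays labelled Tgif1 OE and by 1.23 ± 0.21 (0.000482, or 1.13 relative to the median) on those labelled Tgif2 OE. Cyp26a1, the retinoic acid degrading enzyme, rose by 0.52 ± 0.12 (0.00856) and 0.91 ± 0.12 (8.87e-05, or 0.81 relative to the median) in the same order. Of the 12 genes 2 were higher and 2 lower on the arrays labelled Tgif1 OE (median 0.04), and 3 were higher and 3 lower on those labelled Tgif2 OE (median 0.16), or 2 and 5 after quantile normalization. Of all probe sets 17.8% and 31.1% were called in these comparisons as deposited.

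Markers of other cell types were read beside these values. Of 11 embryonic fibroblast markers 1 was higher and 1 lower in the knockdown, 5 were higher and 1 lower on the arrays labelled Tgif1 OE, and 6 were higher and 0 lower on those labelled Tgif2 OE, or 2 and 0 after quantile normalization. Over all probe sets 22.3%, 17.8% and 31.1% were called in these comparisons. The mean log2 value of the 11 lay between 5.94 and 6.01 on Tgif1 KD and between 6.08 and 6.12 on shControl arrays. It lay between 6.36 and 6.70 on the arrays labelled Tgif1 OE and between 6.30 and 6.64 on those labelled Tgif2 OE, against 5.80 to 6.003 on BirA control. The log2 of their summed signals lay between 12.8821 and 12.8848 on Tgif1 KD and between 12.47 and 12.52 on shControl arrays. It lay between 12.29 and 12.46 on the arrays labelled Tgif1 OE and between 12.45 and 12.58 on those labelled Tgif2 OE, against 11.998 to 12.18 on BirA control. Of 7 neural markers 1 was higher and 1 lower in the knockdown, and 2 were higher and 1 lower in each overexpression group. Of 7 measured blood cell markers 1 was higher and 0 lower in the knockdown, 1 higher and 1 lower on the arrays labelled Tgif1 OE, and 2 higher and 2 lower on those labelled Tgif2 OE. The log2 of the summed neural marker signals lay between 12.29 and 12.57 over the 16 arrays. That of the blood cell markers lay between 10.78 and 10.79 on Tgif1 KD and between 10.15 and 10.25 on shControl arrays, and between 9.61 and 9.78 on the arrays labelled Tgif1 OE and 9.48 and 9.78 on those labelled Tgif2 OE, against 10.28 to 10.48 on BirA control. Of the 10 ES cell markers 2 were higher and 0 lower in the knockdown, 0 higher and 5 lower on the arrays labelled Tgif1 OE, and 1 higher and 1 lower on those labelled Tgif2 OE. The 5′ minus 3′ difference of the Gapdh control probe sets was -0.09 on Tgif1 KD and -0.21 on shControl arrays, without overlap. That of the beta-actin control probe sets was -0.51 and -0.64 in the same order, also without overlap. The part of these differences in the results above was not tested.

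The genes whose log2 values ran most like those of a member were named by Pearson's r over the arrays, among genes with an SD of at least 0.3. These values describe arrays that share their groups and their normalization, and they carry no test. Over all 16 arrays Tgif2 ran most like Fbxo15 (r = 0.95), an ES cell F-box gene, Gpc3 (0.95), which encodes a glypican, and Bach1 (0.95), a repressor gene. For Gpc3 Spearman's rho was 0.98, and r was 0.96 without the Tgif1 KD arrays. Over the 12 arrays of the overexpression arm Tgif2 ran most like Bach1 (0.96), Aqp3 (0.95) and Fbxo15 (0.94).

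Tgif1 ran most like Tbl1xr1 (r = 0.99), a corepressor subunit gene, Nrbf2 (0.97) and Kctd9 (0.97) over the 16 arrays. Without the Tgif1 KD arrays r was 0.87 for Tbl1xr1 and 0.05 for Nrbf2, so the second value rested on those 2 arrays. Over the 12 arrays Tgif1 ran most like Trib3 (0.98), Rmnd5b (0.98) and Slc66a2 (0.98). On the arrays labelled Tgif1 OE Trib3, Rmnd5b and Slc66a2 differed by -1.02, -1.10 and -0.98 from BirA control. In the knockdown Trib3 differed by 0.09, Rmnd5b by 0.17 and Slc66a2 by -1.95.

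Meis1 ran most like Gm20767 (r = 0.97), H1f2 (0.97) and Emc7 (0.97) over the 16 arrays, with r between 0.36 and 0.59 without the Tgif1 KD arrays. Meis2 ran most like Myo10 (0.97), Magt1 (0.97) and Fos (0.97), with r between 0.84 and 0.89 without them. Over the 12 arrays the closest were Cdkn1b, Atg2b and 2810002D19Rik for Meis1 (0.85, 0.85 and 0.84), and Snhg11, Fkbp8 and Ppp1r14a for Meis2 (0.96, 0.95 and 0.95). Meis1 and Meis2 correlated at 0.80 over the 16 arrays, where rho was 0.12, and at -0.49 over the 12. Tgif1 and Tgif2 correlated at -0.64 over the 16 (rho = -0.12) and at 0.55 over the 12. The 3 Pbx2 probe sets correlated with each other at 0.51 to 0.86 over the 16 arrays, and the 2 Pknox1 probe sets at 0.71.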

How the data were processed

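The deposited table holds log2 intensities per probe set, made by the authors with RMA per the submitters' processing notes, which name limma too for the Tgif2 OE samples. The sources used here give neither the versions nor which arrays were normalized together. No further scaling was applied. Probe sets were named from the platform annotation supplied: 20380 carried 1 gene symbol, 691 several and 1555 none, and all 7 member symbols were found in the reference table. A model with a mean for each of the 5 groups was fitted over the 16 arrays (limma 3.58.1, R 4.3.3: lmFit, contrasts, eBayes, Benjamini-Hochberg), with no filter on dim probe sets. The script was tested on simulated data with noise drawn independently for each array. That test does not cover replicates that resemble each other within a group. The number of arrays limits the precision.

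The members and lists were chosen with earlier results of these data known. The genes named are all members, all measured genes of the other TALE list, up to 3 called genes per other pathway list and comparison with the largest change, and the 3 genes most like Tgif1, Tgif2, Meis1 and Meis2. Some genes that this rule allows were left unnamed for length. Each list gene is read from its probe set with the highest mean.

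Deviations from the group means of arrays with the same replicate number correlated at 0.30 to 0.55 in all 12 comparisons of the overexpression arm. The replicate number was therefore tried as a block. An array's own number was its best match in 0 of 12, since replicates 1 and 2, and 3 and 4, resembled each other. These correlations therefore do not show that the number itself pairs the arrays, and calls gained only with that block rest on an unproven pairing. In the knockdown arm the correlation was 0.005, which gives no sign of pairing by number. The replicate block was nevertheless fitted by number in both arms. Alternatives covered scaling, the variance model, dim probe sets, probe sets of a gene, the arrays fitted, blocks and leaving out each array.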

Additional observations from a re-analysis of the deposited data

Results flagged for a closer look

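A test for a single array far from the other 3 of its group (Dixon's, at the 95% level) was run on 30 sets of 4 arrays, that is the 10 probe sets in the 3 overexpression arm groups. It picked out 3, where chance alone picks out about 5% of such sets. Meis1 read 3.55 on Tgif1 OE replicate 2, below the 3.76 to 3.80 of the other 3 arrays of its group. Pbx2 1418894_s_at read 6.95 on the same array, below the 7.05 to 7.07 of the other 3. Pknox1 1421233_at read 6.80 on BirA control replicate 1, above the 6.35 to 6.41 of the other 3.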

How the results depend on the processing

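Every value of a member in the knockdown, 123 over 13 alternative settings, kept its direction and its side of the threshold. With 2 arrays a group, these settings could not split the knockdown arm by replicate pairs as was done in the overexpression arm. The tallies of the 2 arms are therefore not alike. Of 183 values on the arrays labelled Tgif1 OE, 161 kept their side of the threshold, 12 lost a call and 10 gained one. Of 183 on the arrays labelled Tgif2 OE, 167 kept their side, 5 lost a call and 11 gained one. The sign turned in 1 and 6 of these values, none of them called in either setting. In the overexpression arm alone, replicates 3 and 4 gave 2 member calls on the arrays labelled Tgif1 OE and 1 on those labelled Tgif2 OE. Over all probe sets 2227 were then higher and 2350 lower in the first comparison, and 5318 and 1740 in the second. Without Tgif1 OE replicate 2 there were 2 member calls on the arrays labelled Tgif1 OE, where 1807 of all probe sets were higher and 1644 lower. The range over the arrays left out was 2 to 5 member calls, beside 3238 to 3750 over all probe sets. Between the control groups there was 1 member call with 1 probe set per gene, with the mean of a gene's probe sets, and with array pairs as a random block (correlation 0.35). Over all features tested 1689 were higher and 930 lower, 1649 and 1022, and 1451 and 1202 in the same order.

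Calls over all probe sets numbered 5042 in the knockdown and 3152 to 3418 when 1 array was left out (3235 without Tgif1 KD replicate 1, 3152 without shControl replicate 2). With 1 probe set per gene, or the mean of a gene's probe sets, fewer features were tested, and the counts were 3146 and 3209 in the knockdown, 2587 and 2638 on the arrays labelled Tgif1 OE, 4388 and 4394 on those labelled Tgif2 OE, and 2439 and 2658 between these. Scaling changed the comparisons with the arrays labelled Tgif2 OE. Against BirA control 5637 were higher and 1398 lower as deposited, 2580 and 2709 after quantile normalization, and 2771 and 2468 after centring. Between the arrays labelled Tgif1 OE and Tgif2 OE 436 were higher and 3780 lower as deposited, and the totals were 1942 (988 and 954) and 1784 (848 and 936) after these scalings.

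With the replicate block, member calls rose to 5 on the arrays labelled Tgif2 OE and to 2 between these and the arrays labelled Tgif1 OE, where the calls over all probe sets numbered 6376 with it, 4216 without it and 6841 with array pairs as a random block. In the knockdown the block gave 6935 calls over all probe sets and changed no member call. No block could be fitted between shControl and BirA control, which lie in different arms. The dim filter leaves out Meis1.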
